A study of Mus musculus with 14 samples.

Results

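The genes described are the glucose and amino acid transporter genes of the mouse, taken as every row of the count table whose symbol begins with Slc1a, Slc2a, Slc3a, Slc6a, Slc7a, Slc38a or Slc43a and a number. That rule found 72 of the 22430 genes in the table, of which 21 belong to family 6, 16 to family 7, 12 to family 2, 11 to family 38, 7 to family 1, 3 to family 43 and 2 to family 3. Of these, 47 had enough counts to be tested. RNA came from aortic intima, the thin endothelium-lined inside of the vessel, and all 4 groups lacked Apoe, which makes mice prone to atherosclerosis. Wild-type control pools (n = 4) carried Lmna+/+. Ubiquitous progerin pools (n = 3) carried LmnaG609G/G609G, an allele from which all cells can make progerin, the shortened lamin A of Hutchinson-Gilford progeria. Lamin C-only control pools (n = 4) carried LmnaLCS/LCS. VSMC progerin pools (n = 3) carried LmnaLCS/LCS with SM22Cre, a Cre recombinase driven by the promoter of a smooth muscle gene, so that progerin is made in vascular smooth muscle cells (VSMC). The VSMC progerin mice and their controls thus share the LmnaLCS/LCS genotype, and the 2 progerin groups differ in the Lmna allele and in the source of progerin. Each library is a pool of 12 to 14 mice, so a value is an average over animals, and the spread is that between pools. No label gives the age or sex of the mice.

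Sugars and amino acids do not cross the plasma membrane unaided. Family 2 proteins let sugars flow down their gradient, and Slc2a1 is the main such protein of endothelium. Light chains of family 7 are carried to the surface by a heavy chain of family 3 and exchange 1 amino acid for another, whereas cationic transporters of family 7 bring in arginine and lysine. Family 1 takes up glutamate or exchanges small neutral amino acids, and most of family 38 takes up small neutral amino acids such as glutamine with sodium. Family 6 uses sodium and chloride to take up taurine, creatine or glycine, and family 43 carries large neutral amino acids, apart from Slc43a3. Endothelial cells rely on glucose uptake for glycolysis and on arginine uptake for nitric oxide synthesis.

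Library totals ran from 27169784 to 35692385 estimated counts. Levels are counts per 1000000 (CPM) scaled by TMM, the trimmed mean of M-values of edgeR, and values of single pools are given in the order of their pool numbers. An adjusted p is that of the quasi-likelihood test of edgeR with Benjamini-Hochberg adjustment over all 14269 genes tested, and an adjusted p under 0.05 made a call. A value after ± is the standard error (SE) of a log2 fold change, or the SD of a level. Summed over 10 endothelial markers the level was 20609 to 25155 CPM in every library. Of these markers, 2 were called higher and 6 lower with ubiquitous progerin, and 4 higher and 4 lower with VSMC progerin. The 8 smooth muscle markers summed to 492 to 830 CPM in wild-type pools and 936 to 983 with ubiquitous progerin, where 1 was called higher and 3 lower. They summed to 398 to 561 CPM in lamin C-only pools and 319 to 383 with VSMC progerin, where none was called higher and 3 lower. No marker of either list was at 0 in all libraries. Lmna, the edited gene, read 113 to 125 CPM in wild-type pools, 115 to 121 with ubiquitous progerin, 126 to 142 in lamin C-only pools and 207 to 256 with VSMC progerin; a count per gene cannot tell lamin A, lamin C and progerin apart. On the third principal component wild-type control pool 1 lay at 65 and the other 13 libraries between -14.4 and 7.75. The 10 macrophage markers summed to 80.4 to 162 CPM in wild-type pools, 1014 to 1602 with ubiquitous progerin, 74.3 to 263 in lamin C-only pools and 772 to 921 with VSMC progerin. VSMC progerin pools were also above their controls in summed markers of fibroblasts (1654 to 1851 against 567 to 875 CPM; 6 of 8 called higher), adipocytes (913 to 1466 against 194 to 700, 6 of 8 higher) and Schwann cells and nerve (52.6 to 68.8 against 18.4 to 21.5, 2 of 4 tested higher). T and B lymphocyte markers were low but also higher there (6.81 to 8.26 against 1.52 to 2.93 CPM, 2 of 5 tested higher). With ubiquitous progerin, neutrophil markers (7.27 to 8.97 against 0.73 to 2.44 CPM, 3 of 3 tested higher, Mpo at 0 in all libraries) and platelet markers (31 to 39.8 against 10.1 to 11.9, 2 of 5 higher) were above control. With VSMC progerin, platelet markers were at 18.4 to 48.6 CPM against 8.89 to 22.3 in lamin C-only pools, with 2 of 5 called higher. VSMC progerin pool 3 held 7741 CPM of erythroid markers against 419 and 531 in the other pools of its group. Lamin C-only pools held 285 to 540, and all 4 tested erythroid markers were called higher with VSMC progerin. In lysed tissue, a change in the share of a cell type and a change in RNA per cell cannot be told apart, and the part of these other cell types in the values below was not tested.

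Transporter RNA in the control intima came mostly from a handful of genes. Per kilobase of annotated exon, Slc43a3 stood highest in wild-type control, at 195 ± 4.66 CPM per kilobase (SD, n = 4). Slc3a2, the heavy chain, followed at 115 ± 6.68, Slc38a2 at 40.4 ± 1.7 and Slc38a10 at 17.6 ± 0.575, and none of these 4 overlapped its neighbour in the order. Slc1a5 (14 ± 1.16) and Slc7a1 (13.5 ± 0.289) overlapped each other and lay above Slc7a6os (10.1 ± 0.533). Slc6a8 (8.51 ± 0.462), Slc2a1 (8.16 ± 0.579) and Slc2a10 (7.58 ± 0.281) formed a chain of overlapping neighbours, and Slc2a8 (5.43 ± 0.521) overlapped Slc7a2 (5.24 ± 0.685) below it. Slc2a1 was thus the highest sugar transporter of the intima per length, but it did not separate from Slc2a10. Slc7a6os matches the rule by its symbol but is the opposite-strand neighbour of Slc7a6 and no transporter. Of the 47 genes tested, 5 had a mean over all libraries of at least 100 CPM, 21 of at least 10 and 36 of at least 1.

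**Figure D1:**
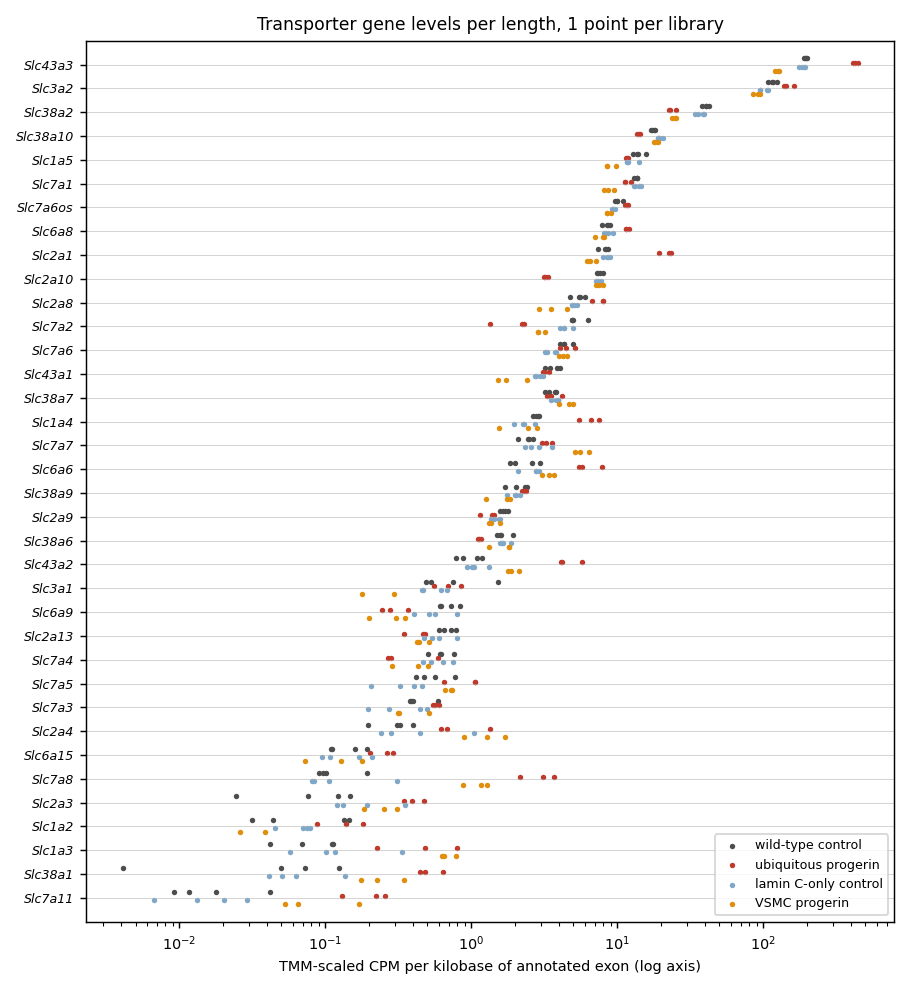
Level of every transporter gene with a mean of at least 1 CPM, in TMM-scaled CPM per kilobase of annotated exon on a log axis, 1 point per library and genes ordered by their wild-type control mean. Slc43a3 leads in all 14 libraries, and the red points of ubiquitous progerin lie to the right of the other groups for Slc43a3, Slc2a1, Slc1a4, Slc6a6, Slc43a2 and Slc7a8.

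Summed over all 72 genes, transporter RNA was at 2326 to 2393 CPM in wild-type pools, 3360 to 3511 with ubiquitous progerin, 2130 to 2295 in lamin C-only pools and 1700 to 1771 with VSMC progerin. The sum was thus above its control in every ubiquitous progerin pool and below it in every VSMC progerin pool. With ubiquitous progerin the mean sum went from 2359 to 3453 CPM and Slc43a3, known as a purine nucleobase transporter, from 871 to 1901. Most of that rise therefore lay in this 1 gene. With VSMC progerin the mean sum went from 2224 to 1730 CPM and Slc43a3 from 830 to 558. Slc43a3 alone made up 36.9% ± 0.431 of the sum in wild-type pools and 55.1% ± 1.16 with ubiquitous progerin, 37.3% ± 0.428 in lamin C-only pools and 32.3% ± 0.447 with VSMC progerin. Slc38a2 went from 15.1% ± 0.534 to 6.02% ± 0.313 of the sum with ubiquitous progerin, and from 14.7% ± 0.524 to 12.6% ± 0.487 with VSMC progerin. Family 43 summed to 877 to 927 CPM in wild-type control against 1914 to 2037 in ubiquitous progerin, while family 38 summed to 518 to 549 against 362 to 383.

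In ubiquitous progerin against wild-type control, 27 of the 47 tested transporter genes were called, 17 higher and 10 lower; of all genes tested 54.6% were called in this comparison, 26.3% higher and 28.3% lower. At least 2-fold changes were called for 12 higher and 3 lower transporter genes, beside 9.15% and 5.88% of all genes. The median log2 fold change of the 47 was 0.19, and that of all genes was 0 to 2 decimals. Without wild-type control pool 1 the counts were 17 higher and 11 lower.

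In VSMC progerin against lamin C-only control, 20 of 47 were called, 10 in each direction, against 42% of all genes, 19% higher and 23% lower. At least 2-fold were 8 higher genes and 1 lower gene, Slc3a1, beside 9.02% and 2.82% of all genes. The median was -0.10 over the transporter genes and -0.03 over all genes. Without lamin C-only control pool 3 the higher calls fell to 5 (9 lower), with Slc2a4, Slc38a1, Slc38a8, Slc7a5 and Slc7a6 no longer called, and without VSMC progerin pool 3, the pool with the erythroid signal, 8 were higher and 12 lower. The share of called transporter genes was near the background in both comparisons. Log2 CPM ranges did not overlap between the groups for 28 of 47 genes with ubiquitous progerin and 26 of 47 with VSMC progerin, beside 56.4% and 45.5% of all genes.

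Both progerin comparisons have their own control pools and share no library. Called in both and higher in both were 7 genes, Slc1a3, Slc2a4, Slc38a1, Slc43a2, Slc7a7, Slc7a8 and Slc7a11, beside 7.89% of all genes with that pattern. Lower in both were 5, Slc1a5, Slc38a2, Slc6a9, Slc7a1 and Slc7a2 (8.63% of all genes). Slc2a1, Slc2a8 and Slc43a3 were higher with ubiquitous progerin and lower with VSMC progerin (6.38% of all genes), and no transporter gene had the reverse pattern (4.27% of all genes). The log2 fold changes of both comparisons had the same sign for 28 of 47 genes, with Pearson's r of 0.40 across genes, close to 0.36 over all genes tested; genes measured in the same libraries are not independent.

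**Figure D2:**
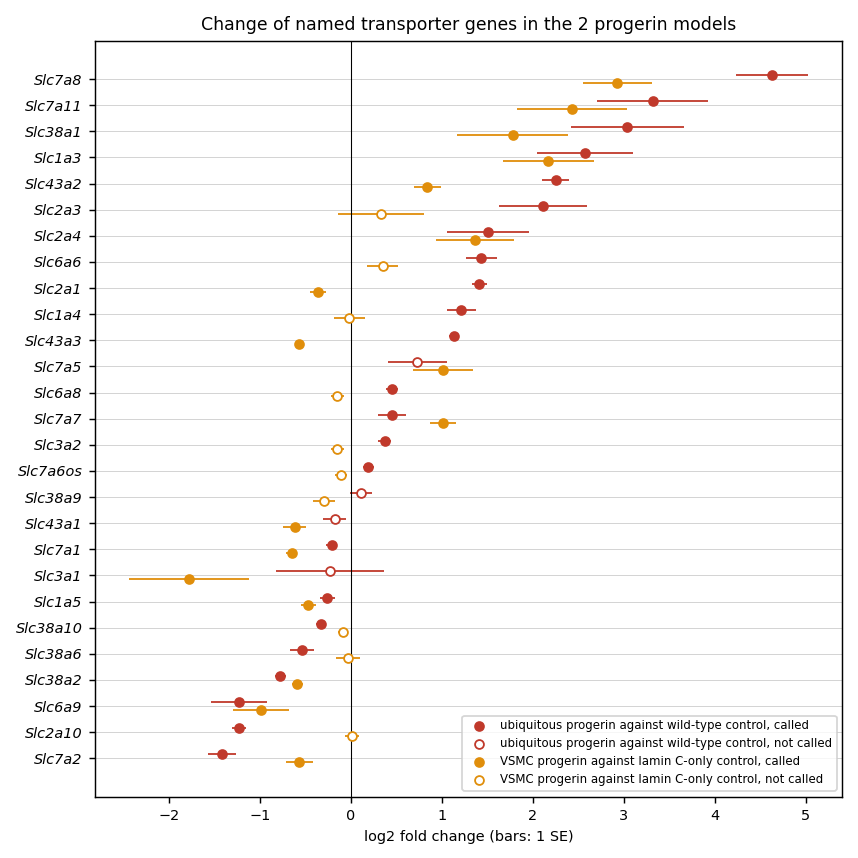
Log2 fold change with 1 SE of 27 named transporter genes, ubiquitous progerin against wild-type control in red and VSMC progerin against lamin C-only control in orange, filled where called. Slc7a8, Slc7a11, Slc38a1 and Slc1a3 lie far to the right in both comparisons, while Slc2a1 and Slc43a3 have red points above 1 and orange points below 0.

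Among the sugar transporters, 11 of 12 were tested. With ubiquitous progerin 4 were higher and 3 lower (36.4% and 27.3%, beside 26.3% and 28.3% of all genes). With VSMC progerin 1 was higher and 2 lower (9.09% and 18.2%, beside 19% and 23% of all genes). Slc2a1 (ENSMUSG00000028645, GRCm38 chr4:119108711-119137983, plus strand), the basal glucose transporter of endothelium, was at 29.4, 29, 25.7 and 30.4 CPM in wild-type pools and 67.3, 79.5 and 81.5 with ubiquitous progerin. Every ubiquitous progerin pool was more than 2 times as high as every control pool (log2 fold change 1.41 ± 0.08, adjusted p = 3.8e-11). In the other model it was at 30, 31, 27.9 and 30.2 CPM in lamin C-only pools and 21.7, 22.7 and 25.1 with VSMC progerin, again without overlap but in the opposite direction (-0.36 ± 0.09, adjusted p = 0.0019). The difference of the 2 effects was 1.77 ± 0.12, adjusted p = 5.6e-10.

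Slc2a8 (chr2:32972990-32982083, minus strand), an intracellular hexose transporter, moved the same way at a lower level. It read 15.2, 19.3, 17.7 and 17.5 CPM in wild-type control against 25.7, 21.5 and 25.6 in ubiquitous progerin, and 15.6, 16.2, 17.1 and 15.7 in lamin C-only control against 11.2, 9.37 and 14.4 in VSMC progerin. Neither pair of groups overlapped (log2 fold change 0.48 ± 0.12, adjusted p = 0.0026, and -0.47 ± 0.13, adjusted p = 0.0057). Slc2a10 (chr2:165503787-165519917, plus strand), a transporter whose loss in people causes arterial tortuosity, fell with ubiquitous progerin: wild-type control pools read 28.4, 26.1, 26.5 and 27.1 CPM and ubiquitous progerin pools 11.9, 11.3 and 11.4 (-1.23 ± 0.08, adjusted p = 2.6e-10). Lamin C-only control read 27.7, 26.4, 26.4 and 25.6 CPM and VSMC progerin 25.4, 26.6 and 28.3, which overlap (0.01 ± 0.08, adjusted p = 0.9), and the difference of the effects was -1.24 ± 0.11, adjusted p = 3.3e-08. Per length, Slc2a1 and Slc2a10, level with each other in wild-type control, stood at 21.7 and 3.24 CPM per kilobase in ubiquitous progerin.

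Slc2a3, the high-affinity glucose transporter of neurons and blood cells, was low throughout, at 0.177, 1.06, 0.553 and 0.889 CPM in wild-type pools and 3.44, 2.82 and 2.51 with ubiquitous progerin (chr6:122727809-122801640, minus strand). The groups did not overlap (2.11 ± 0.48, adjusted p = 0.00094). Neutrophil and platelet markers were higher in the same pools, and their part in this rise was not tested. With VSMC progerin, 1 of 3 tested neutrophil markers and 2 of 5 platelet markers were also called higher. Lamin C-only control at 1.4, 2.55, 0.868 and 0.95 CPM and VSMC progerin at 2.24, 1.34 and 1.84 overlapped (0.33 ± 0.47, adjusted p = 0.61), and the difference of effects (1.79 ± 0.68, adjusted p = 0.038) was no longer called without wild-type control pool 3, any ubiquitous progerin pool, lamin C-only control pool 1 or 2, or VSMC progerin pool 2 or 3 (1.36 to 1.86). Slc2a4, the insulin-responsive transporter of fat and muscle, read 1.38, 1.12, 0.683 and 1.08 CPM against 2.15, 4.63 and 2.37 in ubiquitous progerin, without overlap (chr11:69942539-69948188, minus strand; 1.51 ± 0.45, adjusted p = 0.0074). In the other model it read 1.54, 0.839, 0.976 and 3.65 CPM against 4.44, 3.12 and 5.88 (1.36 ± 0.43, adjusted p = 0.016); here lamin C-only control pool 4, at 3.65, lay above VSMC progerin pool 2. That control pool also had the highest summed adipocyte markers of its group, 700 CPM against 194 to 315 in the others. With ubiquitous progerin these markers summed to 265 to 450 CPM, highest in pool 2, against 195 to 265 in wild-type control. There 0 of the 8 adipocyte markers were called. The part of adipocyte RNA in Slc2a4 was not tested. Leaving out ubiquitous progerin pool 2 ended the first call (1.08), and leaving out lamin C-only control pool 3 (1.16) or VSMC progerin pool 3 (1.11) the second. Slc2a9, a urate transporter, and Slc2a13, which carries myo-inositol, were lower with ubiquitous progerin (log2 fold change -0.35 and -0.67, adjusted p = 0.048 and 0.013) and not called with VSMC progerin. The Slc2a9 call ended in 10 of the 14 fits that left out 1 library (-0.40 to -0.26), all but those without wild-type control pool 1 or a VSMC progerin pool, and under 6 of 10 other alternatives, DESeq2 among them. The Slc2a13 call ended without ubiquitous progerin pool 2 (-0.53).

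**Figure D3:**
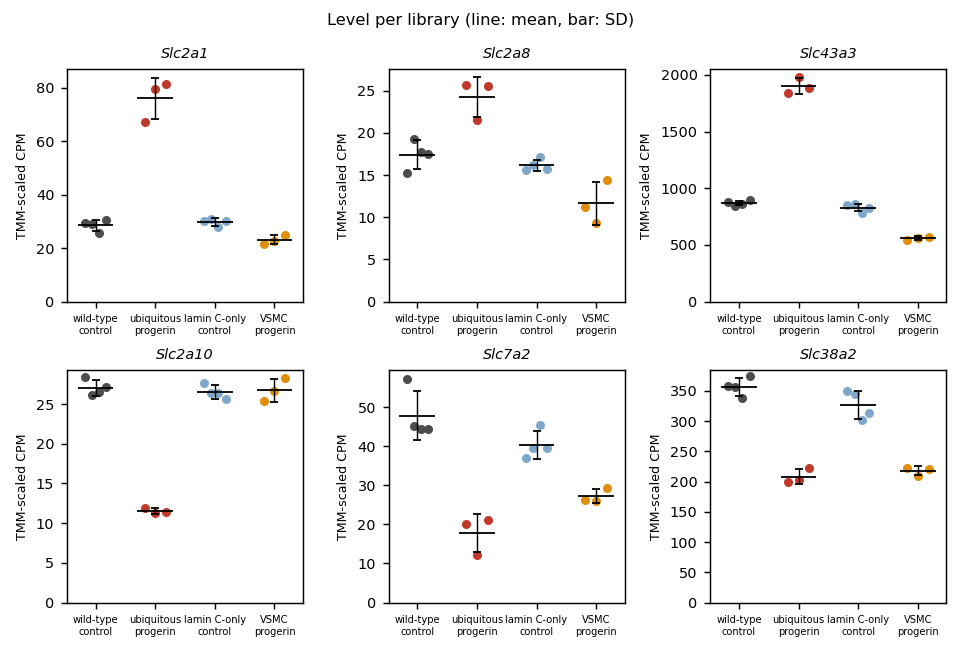
TMM-scaled CPM in each of the 14 libraries (points, with mean and SD) for Slc2a1, Slc2a8, Slc43a3, Slc2a10, Slc7a2 and Slc38a2. The top row shows the 3 genes higher in ubiquitous progerin and lower in VSMC progerin than in their controls; in the bottom row Slc2a10 is lower in ubiquitous progerin alone (11.3 to 11.9 CPM) and Slc7a2 and Slc38a2 are lower in both.

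Of the heavy chains, Slc3a2 (chr19:8706882-8723369, minus strand), which brings most light chains to the surface and also binds integrins, was the second most abundant transporter gene per length. It was at 381, 409, 438 and 402 CPM in wild-type pools and 492, 508 and 576 with ubiquitous progerin, a rise with no overlap (0.37 ± 0.07, adjusted p = 0.00011). In lamin C-only control it read 378, 372, 337 and 335 CPM and in VSMC progerin 301, 333 and 325; the lowest control pool lay just above the highest progerin pool, and the gene was not called (-0.15 ± 0.07, adjusted p = 0.078). The difference of the effects was 0.52 ± 0.10, adjusted p = 0.00017. Slc3a1 (chr17:85028376-85064236, plus strand), the heavy chain of the kidney cystine transporter, stayed under 4 CPM everywhere. Its exons overlap those of Prepl on the other strand, and no source used here gives the strand setting of the counting, so its reads may include those of the neighbour. It read 1.54, 1.06, 1.41 and 1.04 CPM in lamin C-only pools and 0, 0.406 and 0.668 with VSMC progerin (-1.78 ± 0.66, adjusted p = 0.035). That call ended without lamin C-only control pool 1 or 3 or VSMC progerin pool 1 or 2, and in the compared groups alone. Wild-type control (3.44, 1.7, 1.2 and 1.11 CPM) and ubiquitous progerin (1.26, 1.93 and 1.57) overlapped (-0.23 ± 0.59, adjusted p = 0.77).

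Of the light chains 6 were tested, and none was called lower in either model. Higher were 3 with ubiquitous progerin (50%, beside 26.3% of all genes) and 5 with VSMC progerin (83.3%, beside 19% of all genes), at median log2 fold changes of 0.59 and 1.71. Of these 5, Slc7a5 and Slc7a6 were no longer called without lamin C-only control pool 3. Their lamin C-only means (1.29 and 16 CPM) were below those of wild-type control (2.06 and 20.1 CPM), a change that was not called (adjusted p = 0.66 and 0.3). With VSMC progerin the means were 2.62 and 19.4 CPM. Slc7a8 (chr14:54722209-54781946, minus strand), an exchanger of neutral amino acids, had the largest log2 fold change of any transporter gene called in ubiquitous progerin. It was at 0.957, 0.481, 0.455 and 0.508 CPM in wild-type pools and 15.6, 18.4 and 10.7 with ubiquitous progerin (4.63 ± 0.40, adjusted p = 3.5e-08). Its levels in the VSMC model were 0.419, 0.528, 0.407 and 1.56 CPM in controls and 5.84, 6.37 and 4.39 with VSMC progerin (2.93 ± 0.38, adjusted p = 9.1e-06). No pool of either progerin group came near its controls. The difference of the effects was 1.70 ± 0.55, adjusted p = 0.019, and was not called without lamin C-only control pool 4 (1.03), the control pool with the highest value.

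Slc7a11 (chr3:49892526-50443614, minus strand), the light chain of the cystine and glutamate exchanger that feeds glutathione synthesis, was near the limit of detection in control intima. It read 0.248, 0.577, 0.163 and 0.127 CPM in wild-type pools and 3.58, 1.82 and 3.07 with ubiquitous progerin (3.32 ± 0.61, adjusted p = 0.00011). Lamin C-only control pools read 0.279, 0.0932, 0.407 and 0.184 CPM and VSMC progerin pools 2.35, 0.906 and 0.732 (2.43 ± 0.61, adjusted p = 0.0031). Both progerin groups lay above all of their controls, although the levels stayed under 4 CPM. The sequence before its start is shown because Slc7a11 is a known target of Atf4, the transcription factor of the amino acid response, and because the 250 bases before its RefSeq start (GRCm38.p6, chr3:50443614-50443863, minus strand, read 5′ to 3′ toward the start) hold the amino acid response element TGATGNAA on both strands, in capitals.
Slc7a11: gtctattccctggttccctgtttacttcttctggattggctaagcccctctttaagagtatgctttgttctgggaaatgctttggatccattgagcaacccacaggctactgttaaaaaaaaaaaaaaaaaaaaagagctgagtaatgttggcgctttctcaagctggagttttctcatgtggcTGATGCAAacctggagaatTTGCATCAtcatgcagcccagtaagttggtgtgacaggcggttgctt
The 2 matches begin 66 and 47 bases before the start. TGATGNAA, searched on both strands, was in 3.45% of 32851 RefSeq windows of that length, and in 4 of 74 windows of the 53 transporter genes that have one. Besides Slc7a11 these were 2 of the 5 windows of Slc7a7 and the window of Slc6a21, which was not tested. A match is a run of letters and not evidence of binding. The other letters searched were TGACNNNGC, the antioxidant response element (10.2% of all windows, 9 of 74 transporter windows), ACGTG, the core of the hypoxia response element (16.6% and 17 of 74), and CACGTG, the E-box, which contains ACGTG (6.02% and 8 of 74).

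Slc7a7 (chr14:54369442-54417780, minus strand), an exchanger of cationic for neutral amino acids that is prominent in macrophages, was at 6.87, 8.14, 8.75 and 8.19 CPM in wild-type pools and 11.9, 10.8 and 10.1 with ubiquitous progerin (0.45 ± 0.15, adjusted p = 0.014). It was at 8.47, 11.8, 7.7 and 9.62 CPM in lamin C-only pools and 21.2, 16.9 and 18.5 with VSMC progerin (1.01 ± 0.14, adjusted p = 1e-05). Neither pair overlapped, and the rise was greater in the VSMC model (difference -0.56 ± 0.21, adjusted p = 0.033, called no longer when ubiquitous progerin pool 2 or 3, wild-type control pool 2, 3 or 4, lamin C-only control pool 1 or 3, or VSMC progerin pool 1 was left out). The ubiquitous call ended without ubiquitous progerin pool 1 (0.38). Exons of Slc7a7 overlap those of Oxa1l on the other strand. Slc7a5 (chr8:121881150-121907694, minus strand), the leucine exchanger of growing cells, read 1.7, 1.21, 0.759 and 1.5 CPM in lamin C-only pools and 2.68, 2.44 and 2.74 with VSMC progerin without overlap (1.01 ± 0.33, adjusted p = 0.017); it was not called without lamin C-only control pool 3 (0.83). In wild-type control it read 2.09, 1.54, 1.76 and 2.86 CPM and in ubiquitous progerin 2.39, 3.93 and 3.94, which overlap (0.73 ± 0.32, adjusted p = 0.062). It was called when wild-type control pool 4 (0.93), ubiquitous progerin pool 1 (0.94) or lamin C-only control pool 3 (0.73) was left out. DESeq2, limma-voom and a block for replicate number also called it. Slc7a6 was called higher in VSMC progerin and not in ubiquitous progerin (0.28 ± 0.11, adjusted p = 0.04; 0.04 ± 0.11, adjusted p = 0.77 in ubiquitous progerin), and the difference of effects was not called (-0.24 ± 0.15, adjusted p = 0.21). The VSMC progerin call ended without lamin C-only control pool 1 or 3 or VSMC progerin pool 2 or 3 (0.23 to 0.28), and with library totals alone or no filter on low counts.

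The macrophage markers were also higher in both models: all 10 markers on that list were called higher in each progerin comparison, with median log2 fold changes of 3.69 and 3.10. Slc7a8, Slc7a11, Slc38a1 and Slc43a2 were higher in ubiquitous progerin than in VSMC progerin on average, as were the summed macrophage markers, while Slc7a7, Slc1a3 and Slc2a4 were not. Within ubiquitous progerin, pool 1 had the highest macrophage sum (1602 CPM) and the highest Slc43a2, Slc38a1, Slc7a11 and Slc7a7, whereas Slc7a8, Slc1a3 and Slc2a4 were highest in pool 2, which had the lowest sum (1014). Within VSMC progerin, pool 2 had the highest sum (921 CPM) and the highest Slc7a8. There Slc43a2, Slc38a1, Slc7a11, Slc7a7 and Slc1a3 were highest in pool 1 (sum 859), and Slc2a4 in pool 3, which had the lowest sum (772). The part of macrophage RNA in these rises was not tested.

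**Figure D4:**
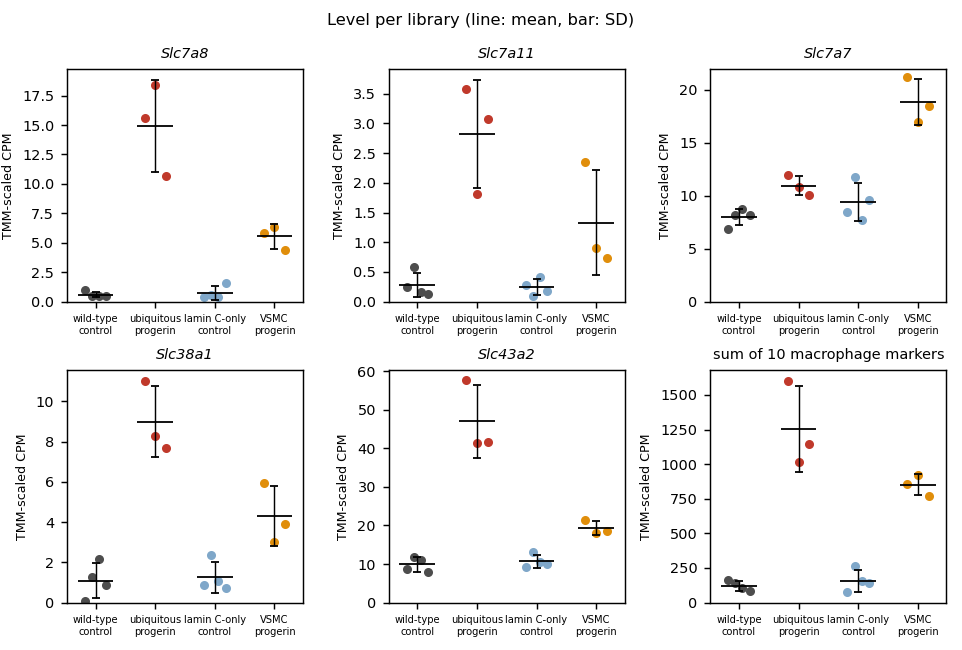
TMM-scaled CPM in each of the 14 libraries (points, with mean and SD) for Slc7a8, Slc7a11, Slc7a7, Slc38a1 and Slc43a2, beside the sum of 10 macrophage markers. All 6 panels show both progerin groups above their controls; Slc7a7 alone is higher in VSMC progerin (16.9 to 21.2 CPM) than in ubiquitous progerin (10.1 to 11.9).

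Of 4 cationic transporters and relatives tested, Slc7a1 and Slc7a2 were lower in each model (50%, beside 28.3% and 23% of all genes) and none was higher. Slc7a3 and Slc7a4 were called in neither, at log2 fold changes of 0.38 and -0.72 with ubiquitous progerin and 0.12 and -0.55 with VSMC progerin. Slc7a1 (chr5:148327410-148399904, minus strand), the main arginine transporter of most cells, was at 158, 157, 151 and 157 CPM in wild-type pools and 130, 144 and 131 with ubiquitous progerin (-0.21 ± 0.06, adjusted p = 0.0091; not called without ubiquitous progerin pool 1, at -0.17). It was at 168, 151, 152 and 161 CPM in lamin C-only pools and 92.9, 100 and 110 with VSMC progerin (-0.65 ± 0.06, adjusted p = 9.4e-08). The groups did not overlap in either model, and the fall was greater with VSMC progerin (difference 0.44 ± 0.09, adjusted p = 0.00043). Slc7a2 (chr8:40862396-40922308, plus strand), a second arginine transporter, showed the greater fall with ubiquitous progerin. It read 57.2, 45.2, 44.5 and 44.5 CPM in wild-type pools and 20.2, 12.2 and 21.1 with ubiquitous progerin (-1.42 ± 0.15, adjusted p = 1.1e-06). The VSMC model read 37.1, 39.5, 45.4 and 39.5 CPM in controls and 26.3, 26 and 29.3 with VSMC progerin (-0.57 ± 0.15, adjusted p = 0.0058). Again no progerin pool reached its controls, and the difference of the effects was -0.86 ± 0.21, adjusted p = 0.0035. The 10 endothelial markers summed to 20609 to 21626 CPM in ubiquitous progerin against 23268 to 25155 in wild-type control, with 2 called higher and 6 lower. In the VSMC model they summed to 22142 to 22981 against 22363 to 24484, with 4 higher and 4 lower. The part of endothelial RNA in the falls of Slc7a1 and Slc7a2 was not tested.

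In family 1, 4 of 7 genes were tested. Slc1a5 (chr7:16781340-16798274, plus strand), the glutamine exchanger, was the most abundant of them per length and lower in both models. It read 65.2, 53.8, 57.5 and 57 CPM in wild-type pools and 48.8, 49 and 48 with ubiquitous progerin (-0.26 ± 0.08, adjusted p = 0.01). In the VSMC model it read 49.7, 48.8, 48.8 and 58.7 CPM in controls and 40.8, 35.3 and 35.2 with VSMC progerin (-0.47 ± 0.08, adjusted p = 0.00011), with no overlap in either. Slc1a4 (chr11:20302180-20332713, minus strand), an exchanger of alanine, serine and cysteine, rose about as far as Slc2a1 in ubiquitous progerin. It was at 11.3, 11.4, 10.4 and 10.9 CPM in wild-type pools and 21.3, 29.5 and 25.8 with ubiquitous progerin (1.21 ± 0.16, adjusted p = 2.4e-06), every progerin pool lying above every control pool. In lamin C-only control (8.83, 10.7, 7.67 and 9.01 CPM) and VSMC progerin (6.06, 11.1 and 9.64) the ranges overlapped (-0.02 ± 0.17, adjusted p = 0.95), and the difference of the effects was 1.23 ± 0.23, adjusted p = 0.00022. Slc1a3 (chr15:8634124-8710764, minus strand), a glutamate transporter best known from glia, was low in controls, at 0.354, 0.961, 0.586 and 0.952 CPM in wild-type control and 0.866, 0.995, 0.488 and 2.88 in lamin C-only control. It was at 1.94, 6.78 and 4.08 CPM in ubiquitous progerin and 6.72, 5.4 and 5.53 in VSMC progerin, above all of its controls in each case (2.57 ± 0.53, adjusted p = 0.00061, and 2.17 ± 0.50, adjusted p = 0.0024). Slc1a2 was not called in either comparison and was at 0 in 1 VSMC progerin pool.

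In family 38, 8 of 11 genes were tested. With ubiquitous progerin 1 was higher and 3 lower (12.5% and 37.5%, beside 26.3% and 28.3% of all genes). With VSMC progerin 2 were higher and 1 lower (25% and 12.5%, beside 19% and 23% of all genes). Slc38a2 (chr15:96687392-96699730, minus strand), a glutamine and alanine transporter that cells induce when amino acids run short, was lower in both models. It was at 358, 356, 338 and 375 CPM in wild-type pools and 200, 202 and 222 with ubiquitous progerin (-0.78 ± 0.06, adjusted p = 3.7e-09). In the other model it was at 349, 344, 302 and 313 CPM in lamin C-only pools and 223, 209 and 221 with VSMC progerin (-0.59 ± 0.06, adjusted p = 3.4e-07). All 6 progerin pools lay between 200 and 223 CPM and all 8 control pools between 302 and 375, and the difference of effects was not called (-0.19 ± 0.09, adjusted p = 0.088). That difference was called without ubiquitous progerin pool 3 (-0.26), with DESeq2 and with upper-quartile scaling. Slc38a1 (chr15:96571418-96642913, minus strand), its close relative, went up from a much lower level: 0.0709, 1.25, 2.15 and 0.857 CPM in wild-type control against 11, 8.27 and 7.68 in ubiquitous progerin (3.04 ± 0.62, adjusted p = 0.001). Lamin C-only control read 0.866, 2.36, 1.08 and 0.705 CPM against 5.95, 3.03 and 3.91 in VSMC progerin (1.78 ± 0.61, adjusted p = 0.032). That call ended when any of lamin C-only control pools 1, 3 and 4 or VSMC progerin pools 1 and 3 was left out (1.50 to 1.84). It also ended with no filter on low counts or a block for replicate number. Even so, Slc38a2 stayed far above Slc38a1 in every library.

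Slc38a10 (chr11:120103960-120151346, minus strand), a member of little-known role, was at 115, 117, 111 and 109 CPM in wild-type pools and 89.9, 92.2 and 88.1 with ubiquitous progerin, a small fall without overlap (-0.33 ± 0.05, adjusted p = 3.1e-05). It was at 122, 132, 125 and 121 CPM in lamin C-only pools and 115, 117 and 121 with VSMC progerin, which overlap (-0.09 ± 0.05, adjusted p = 0.21). The difference of effects was -0.24 ± 0.08, adjusted p = 0.012, and -0.17 and not called when counts were scaled by library totals alone. Slc38a6 (chr12:73286779-73354049, plus strand), a less studied member, was at 12.3, 11.7, 12.4 and 15 CPM in wild-type pools and 9, 8.82 and 8.69 with ubiquitous progerin (-0.54 ± 0.13, adjusted p = 0.0019), again without overlap. Its levels in lamin C-only control (12.6, 12.8, 14.5 and 12.2 CPM) and VSMC progerin (14.1, 10.2 and 14) overlapped (-0.03 ± 0.13, adjusted p = 0.87). Slc38a9 (chr13:112660751-112738749, plus strand), the lysosomal arginine sensor that signals to mTORC1, was called in neither model. Its VSMC progerin change was called without wild-type control pool 2, lamin C-only control pool 2 or VSMC progerin pool 1 (-0.30 to -0.37). Library totals alone, limma-voom and a block for replicate number called its VSMC progerin change as well. It read 39, 28.5, 39.9 and 33.7 CPM in wild-type pools and 39.4, 37 and 38.1 with ubiquitous progerin (0.11 ± 0.12, adjusted p = 0.46). It was at 33.6, 29.4, 36 and 33 CPM in lamin C-only pools and 30.6, 21 and 29.2 with VSMC progerin (-0.30 ± 0.12, adjusted p = 0.063). Slc38a4 was at 0 in all 3 VSMC progerin pools and at 0.0613 to 0.404 CPM in lamin C-only control, and was not called (adjusted p = 0.055).

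Family 43 held the largest amount of transporter RNA. Slc43a3 (chr2:84936579-84958509, plus strand), known as a purine nucleobase transporter, was at 877, 847, 863 and 896 CPM in wild-type pools and 1838, 1978 and 1887 with ubiquitous progerin. The means were 871 ± 20.8 and 1901 ± 70.9 CPM (SD), and the groups lay far apart (1.13 ± 0.05, adjusted p = 1.6e-12). It was at 851, 857, 785 and 826 CPM in lamin C-only pools and 540, 561 and 574 with VSMC progerin, where every progerin pool lay below every control pool (-0.57 ± 0.05, adjusted p = 3e-08). The difference of the effects, 1.70 ± 0.07, adjusted p = 1.3e-12, had the smallest p of the transporter genes. Slc43a2 (chr11:75531694-75577575, plus strand), which lets large neutral amino acids out of cells, was at 8.75, 11.9, 11 and 7.94 CPM in wild-type pools and 57.8, 41.4 and 41.8 with ubiquitous progerin (2.25 ± 0.15, adjusted p = 6.1e-10). It was at 9.3, 13.2, 10.5 and 10.1 CPM in lamin C-only pools and 21.4, 18 and 18.7 with VSMC progerin (0.84 ± 0.15, adjusted p = 0.00018), so the rise was present in both models and greater in the first (difference 1.40 ± 0.21, adjusted p = 3e-05). Slc43a1 (chr2:84838850-84863594, plus strand), the other large neutral amino acid carrier of the family, was at 15.5, 17.6, 17 and 15.8 CPM in lamin C-only pools and 13.7, 8.65 and 9.86 with VSMC progerin, a fall without overlap (-0.62 ± 0.13, adjusted p = 0.00086). Wild-type control at 21.9, 18.2, 19.8 and 23.2 CPM and ubiquitous progerin at 17.7, 17.9 and 19.5 overlapped (-0.18 ± 0.13, adjusted p = 0.25).

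Family 6 had the most members, of which 8 of 21 were tested. Slc6a8 (chrX:73673150-73682502, plus strand), the creatine transporter, was at 44.6, 45.1, 46.7 and 41 CPM in wild-type pools and 59.7, 63.1 and 59.3 with ubiquitous progerin, without overlap (0.45 ± 0.07, adjusted p = 2.4e-05). In lamin C-only control it was at 48.7, 44.9, 42.3 and 42.8 CPM and in VSMC progerin at 36.5, 42.4 and 41.4, with overlap (-0.15 ± 0.07, adjusted p = 0.098). The difference of the effects was 0.61 ± 0.10, adjusted p = 7.4e-05. Slc6a6 (chr6:91684053-91759066, plus strand), the taurine transporter, was at 22.1, 16.8, 15.6 and 25 CPM in wild-type pools and 66.4, 46 and 48.5 with ubiquitous progerin (1.43 ± 0.17, adjusted p = 4.5e-06). It was at 23.6, 23.4, 24.4 and 17.7 CPM in lamin C-only pools and 31, 28.8 and 25.7 with VSMC progerin, where all 3 progerin pools were above the controls but the gene was not called (0.35 ± 0.17, adjusted p = 0.11). The VSMC progerin change was called without ubiquitous progerin pool 1 (0.38), with DESeq2 and in the compared groups alone. The difference of the effects was 1.08 ± 0.24, adjusted p = 0.0021. Slc6a9 (chr4:117834506-117875198, plus strand), a glycine transporter whose exons overlap those of B4galt2 and Ccdc24 on the other strand, was lower in both models. It read 3.72, 4.29, 3.19 and 3.11 CPM in wild-type pools and 1.43, 1.89 and 1.26 with ubiquitous progerin (-1.23 ± 0.31, adjusted p = 0.0022). For the VSMC model the values were 4.11, 2.89, 2.63 and 2.08 CPM in controls and 1.03, 1.81 and 1.56 with VSMC progerin (-0.99 ± 0.31, adjusted p = 0.013). No progerin pool reached its controls, and the second call ended without lamin C-only control pool 1 (-0.78) or VSMC progerin pool 1 (-0.77). Slc6a20a was called higher with ubiquitous progerin at under 2 CPM (1.33, 0.741 and 1.19 CPM against 0, 0.32, 0 and 0.127 in wild-type control, adjusted p = 0.012). It has a close copy in Slc6a20b, and reads shared between them are divided by a model. Exons of Slc6a20a also overlap those of Ccr9 on the other strand, so its reads may include those of that neighbour.

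Slc7a6os (chr8:106200717-106210935, minus strand), the neighbour that is no transporter, was at 45.8, 42.3, 40.6 and 41.9 CPM in wild-type pools and 49.2, 49.7 and 47.4 with ubiquitous progerin (0.19 ± 0.06, adjusted p = 0.015; not called without ubiquitous progerin pool 2). It was at 39.3, 38.5, 39.4 and 40.9 CPM in lamin C-only pools and 36, 38 and 36 with VSMC progerin, without overlap and not called (-0.11 ± 0.07, adjusted p = 0.2). It is 1 of the 17 genes counted as higher with ubiquitous progerin.

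The comparison of the 2 controls, lamin C-only against wild-type, asks what the lack of lamin A does without progerin. None of the 47 transporter genes was called in either direction by edgeR, beside 0.175% of all genes (0.0911% higher and 0.0841% lower), and none by DESeq2. Unadjusted p was under 0.05 for 8 of the 47, beside 1052 of all 14269 genes. The 8 were Slc1a5, Slc2a3, Slc3a2, Slc7a5, Slc7a6, Slc38a2, Slc38a10 and Slc43a1. The smallest adjusted p was 0.3, for Slc7a6, and log2 fold changes ran from -1.18 (Slc7a10) to 1.09 (Slc2a3). Ranges did not overlap for 5 of 47 genes, beside 709 of all 14269 genes (4.97%). That share was above the one of all genes but rests on few genes. The 5 were Slc2a9, Slc3a2, Slc7a6, Slc38a10 and Slc43a1. This comparison shares its wild-type pools with the ubiquitous progerin comparison and its lamin C-only pools with the VSMC progerin comparison.

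The difference between the ubiquitous and the VSMC progerin effect was called for 18 of 47 transporter genes, 12 with the higher value in ubiquitous progerin and 6 with the lower, against 44.2% of all genes, 22.4% and 21.8%. The median difference was 0.39 over the transporter genes and 0.00 over all genes. The 12 genes were Slc1a4, Slc2a1, Slc2a3, Slc2a8, Slc3a2, Slc6a6, Slc6a8, Slc7a1, Slc7a8, Slc43a2, Slc43a3 and the non-transporter Slc7a6os, and the 6 were Slc2a10, Slc7a2, Slc7a7, Slc7a10, Slc38a6 and Slc38a10. Without wild-type control pool 4 or VSMC progerin pool 1 the 6 became 3. The mouse models also differ in the Lmna allele of their controls, which cannot be told apart from the source of progerin.

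The enzymes and sensors that act on the same nutrients were followed in 4 lists, whose counts stand beside 26.3% higher and 28.3% lower of all genes with ubiquitous progerin and 19% and 23% with VSMC progerin. In glucose use and lactate export, all 29 genes were tested; 14 (48.3%) were higher and 7 (24.1%) lower with ubiquitous progerin (median log2 fold change 0.23), and 8 (27.6%) higher and 7 lower with VSMC progerin (-0.03). Txnip, the arrestin that lowers glucose uptake by removing Slc2a1 from the surface, moved with Slc2a1 in both models. Its level was 1570 ± 69.4 CPM in wild-type pools and 2419 ± 290 with ubiquitous progerin (0.62 ± 0.07, adjusted p = 1.8e-07). It was at 1670 ± 11.1 in lamin C-only pools and 1226 ± 86.9 with VSMC progerin (-0.45 ± 0.07, adjusted p = 2.8e-05). Bsg, the partner that lactate carriers need to reach the surface, fell from 426 ± 7.19 to 286 ± 1.46 CPM with ubiquitous progerin (-0.57 ± 0.05, adjusted p = 8.5e-09) and was not called with VSMC progerin (0.12 ± 0.05, adjusted p = 0.058). Hk2, a hexokinase that traps glucose in the cell, was higher in both (2.08 ± 0.31, adjusted p = 1.2e-05, and 2.24 ± 0.31, adjusted p = 7e-06), as was Pfkfb4, which makes an activator of glycolysis (1.71 ± 0.23, adjusted p = 2.6e-06, and 1.96 ± 0.23, adjusted p = 7.8e-07). Pfkl, the liver-type phosphofructokinase, was lower in both (-0.63 ± 0.08, adjusted p = 1.4e-06, and -0.35 ± 0.08, adjusted p = 0.0014), and Gpi1, the isomerase that follows hexokinase, was higher in the first and lower in the second (0.23 ± 0.05, adjusted p = 0.0014, and -0.42 ± 0.05, adjusted p = 3.6e-06).

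In the amino acid response list, Atf4 and its known targets, 8 of 23 genes were higher and 5 lower with ubiquitous progerin (median 0.15), and 6 higher and 2 lower with VSMC progerin (median 0.22). Called in all were 56.5% and 34.8% of the list, beside 54.6% and 42% of all genes. The list did not move as 1 block. Cebpb, a partner of Atf4, was higher in both (1.85 ± 0.20, adjusted p = 1.6e-07, and 1.80 ± 0.20, adjusted p = 3.8e-07). Cth, which makes cysteine, rose from 0.421 ± 0.0985 to 6.28 ± 0.769 CPM with ubiquitous progerin (3.89 ± 0.55, adjusted p = 5.1e-06) and was not called with VSMC progerin (-0.32 ± 0.60, adjusted p = 0.7). Nupr1, a stress-induced chromatin protein, fell with ubiquitous progerin (-1.64 ± 0.13, adjusted p = 1e-07) and rose with VSMC progerin (0.73 ± 0.12, adjusted p = 0.00025). Trib3, a pseudokinase induced by Atf4, fell with VSMC progerin (-1.45 ± 0.12, adjusted p = 7e-09) and was not called with ubiquitous progerin (-0.05 ± 0.11, adjusted p = 0.76).

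In the list of amino acid sensing by mTORC1, the kinase complex that amino acids switch on at the lysosome, 11 of 27 genes were higher and 7 lower with ubiquitous progerin (median 0.15), and 3 higher and 7 lower with VSMC progerin (median 0.02), in all 66.7% and 37% of the list. Sesn1, a sestrin that restrains the complex, was at 67.4 ± 3.82 CPM in wild-type pools and 264 ± 32.5 with ubiquitous progerin (1.97 ± 0.08, adjusted p = 3.2e-13). It was at 64.6 ± 5.7 in lamin C-only pools and 33.4 ± 1.68 with VSMC progerin (-0.95 ± 0.08, adjusted p = 1.8e-08). It therefore moved like Slc2a1 and Slc43a3, up in one model and down in the other. Tsc1, part of the complex that inhibits mTORC1, had the same pattern (0.71 ± 0.09, adjusted p = 2.4e-06, and -0.54 ± 0.10, adjusted p = 0.00014). With ubiquitous progerin Deptor, an inhibitory subunit, rose (1.96 ± 0.13, adjusted p = 1.9e-10) and Mlst8, a core subunit, fell (-1.90 ± 0.14, adjusted p = 1.3e-09), and neither was called with VSMC progerin (0.28 ± 0.13, adjusted p = 0.098, and 0.30 ± 0.13, adjusted p = 0.067). Nprl3, part of a complex that signals amino acid shortage, was higher in both (0.32 ± 0.09, adjusted p = 0.0044, and 0.40 ± 0.09, adjusted p = 0.001).

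In the list of glutamine, glutamate and glutathione enzymes, 17 of 18 genes were tested; 5 were higher and 3 lower with ubiquitous progerin (median 0.04), and 4 higher and 4 lower with VSMC progerin (median -0.13), 47.1% of the tested genes in each. Glul, glutamine synthetase, rose from 435 ± 30.1 to 1091 ± 132 CPM with ubiquitous progerin (1.33 ± 0.08, adjusted p = 6.2e-11) and fell from 407 ± 35.4 to 306 ± 16.9 with VSMC progerin (-0.41 ± 0.08, adjusted p = 0.00039). Gclc, the rate-limiting enzyme of glutathione synthesis, rose with ubiquitous progerin (1.29 ± 0.08, adjusted p = 3.8e-11) and was not called with VSMC progerin (-0.07 ± 0.08, adjusted p = 0.5). Nqo1, a quinone reductase of the antioxidant response, rose with VSMC progerin (1.17 ± 0.14, adjusted p = 1.8e-06) and was not called with ubiquitous progerin (-0.07 ± 0.15, adjusted p = 0.71). Got1, an aspartate aminotransferase, was higher in both (0.63 ± 0.14, adjusted p = 0.00067, and 0.43 ± 0.14, adjusted p = 0.018; the second call ended without lamin C-only control pool 3, at 0.37, or VSMC progerin pool 1, at 0.32). Glud1, glutamate dehydrogenase, was lower with VSMC progerin (-0.40 ± 0.05, adjusted p = 6.1e-06; with ubiquitous progerin -0.04 ± 0.05, adjusted p = 0.54). In the comparison of the 2 controls, no gene of the 4 lists was called.

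**Figure D5:**
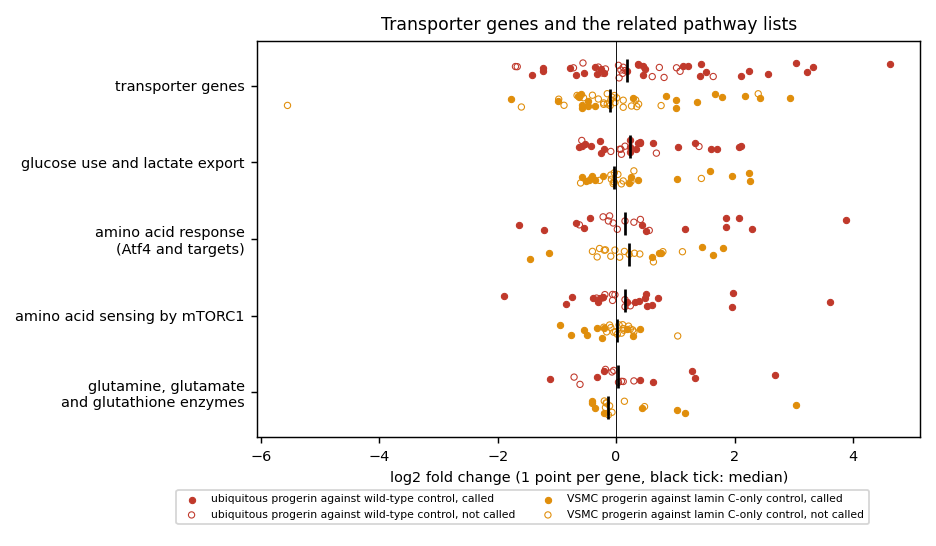
Log2 fold change of every tested gene of the transporter set and of 4 related lists, red for ubiquitous progerin against wild-type control and orange for VSMC progerin against lamin C-only control, filled where called, with a black tick at the median. Each list spreads on both sides of 0 with medians from -0.13 to 0.23; the open orange point near -5.55 is Slc38a4, at 0 in all 3 VSMC progerin pools, whose fitted value depends on the prior count.

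The remaining genes were scarce. Of the 72, 25 were not tested, and none of those went above 1.09 CPM in any library; Slc6a11, Slc6a14, Slc6a18 and Slc7a12 were at 0 in all 14. Of the 47 tested, 11 had a mean under 1 CPM, among them the sugar transporters Slc2a2, Slc2a5, Slc2a6 and Slc2a12, whose highest library values ran from 0.375 to 1.58 CPM. Slc38a8 was called higher with VSMC progerin (1.07, 1.41 and 0.541 CPM against 0.279, 0.155, 0.325 and 0.49, adjusted p = 0.04). That call ended in 8 of the 14 fits that left out 1 library (1.34 to 1.69): any ubiquitous progerin pool, lamin C-only control pools 1 to 3, and VSMC progerin pools 1 and 2. Slc7a10, a light chain whose exons overlap those of Lrp3, was at 0.551, 0.562 and 0.859 CPM in VSMC progerin and at most 0.635 in the other groups, and was called in neither progerin comparison but in the difference of effects (-4.10 ± 1.63, adjusted p = 0.047). That call ended in 10 of the 14 fits that left out 1 library (-4.23 to -3.30), and also with limma-voom and without a filter on low counts. Tested and called in neither progerin comparison were also Slc38a7, Slc6a15, Slc7a3 and Slc7a4, at means of 16, 1.27, 1.63 and 2.15 CPM over all libraries.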

How the data were processed

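Polyadenylated RNA of aortic intima was sequenced in 14 libraries, from 100 ng of total RNA each and with a strand-specific kit, per the labels' protocols. The deposited count table holds RSEM estimated counts, and RSEM divides reads that match several genes or transcripts. The submitters' processing notes name RSEM 1.2.28, STAR 2.7.10b, cutadapt 4.1, Trim Galore 0.6.10 and limma, with GRCm38; no source used here gives the annotation release, strand setting or batches. A second deposited table, log2 values from limma voom for 13034 genes, served only as an alternative.

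Groups follow the labelled genotype. Estimated counts were rounded, filtered by group with filterByExpr (minimum count 10, minimum total 15, share 0.7), which kept 14269 of 22430 genes, and scaled by TMM. One edgeR 4.0.16 fit (R 4.3.3) over the 14 libraries, with group means and robust quasi-likelihood dispersions, gave every comparison. P-values were adjusted by Benjamini-Hochberg over all genes tested, and the SE is the absolute log2 fold change over the square root of F. Alternatives used DESeq2 1.42.0, limma 3.58.1, other scalings and filters, the compared groups alone, and the fit without each library.

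Named genes are those called with at least a 2-fold change, a mean of at least 1 CPM and ranges that do not overlap, the 2 highest per kilobase in each family, and transporters with well-known roles; of the difference of effects up to 4 per direction, and of each pathway list up to 3 per progerin comparison, by smallest p. Genes outside this rule (such as Slc2a8, Slc7a6, Slc7a10, Slc38a4, Slc38a8 and Slc6a20a) were picked after their values were seen. The members, the lists and the rule were chosen with earlier results of these data known. Positions and exon lengths are from GENCODE M21 on GRCm38, which matched all 72 genes; windows before gene starts are from RefSeq (GRCm38.p6). On simulated counts for ubiquitous progerin against wild-type control (14035 genes), 59.7% of 1.5-fold, 88.1% of 2-fold and 98.5% of 4-fold changes were called. Only 67, 67 and 66 genes were changed, all with a mean over 1 CPM. In the data 54.6% of genes were called, so the adjustment acts differently there and these rates need not hold. They do not cover the 11 tested transporter genes with a mean under 1 CPM.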

Additional observations from a re-analysis of the deposited data

Results flagged for a closer look

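In 6 of 54 groups of 4 control pools checked among the named transporter genes, 1 pool lay far from the other 3; chance alone gives about 1 in 20. Lamin C-only control pool 4 was that pool for Slc1a5 (58.7 CPM against 48.8 to 49.7), Slc6a6 (17.7 against 23.4 to 24.4) and Slc7a8 (1.56 against 0.407 to 0.528). Wild-type control pool 1, which stands apart over all genes, was that pool for Slc7a2 (57.2 CPM against 44.5 to 45.2) and Slc7a8 (0.957 against 0.455 to 0.508), and wild-type control pool 3 for Slc7a1 (151 against 157 to 158). The ubiquitous and VSMC progerin calls of these genes held without the pool in question.

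For 18 transporter genes the effect of ubiquitous progerin differed from that of VSMC progerin by the test of the difference itself (log2, first effect minus second). It was larger in the first for Slc2a3 (1.79), Slc2a1 (1.77), Slc43a3 (1.70), Slc7a8 (1.70), Slc43a2 (1.40), Slc1a4 (1.23), Slc6a6 (1.08), Slc2a8 (0.95), Slc6a8 (0.61), Slc3a2 (0.52), Slc7a1 (0.44) and Slc7a6os (0.30). It was smaller in the first for Slc7a10 (-4.10), Slc2a10 (-1.24), Slc7a2 (-0.86), Slc7a7 (-0.56), Slc38a6 (-0.51) and Slc38a10 (-0.24). The Slc7a10 difference, at levels under 1 CPM, was not called in 10 of the 14 fits that left out 1 library (-4.23 to -3.30), with limma-voom, without a filter on low counts or with the replicate block. Library totals alone ended the call for Slc7a7, Slc38a6 and Slc38a10, limma-voom for Slc7a8 and Slc38a6, the upper quartile for Slc7a6os, and the replicate block for Slc2a3. The Slc38a6 difference was not called without wild-type control pool 4, ubiquitous progerin pool 2 or 3, lamin C-only control pool 1 or 4, or VSMC progerin pool 1 or 3 (-0.43 to -0.52).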

How the results depend on the processing

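The counts of transporter genes called were recomputed under other scalings (DESeq2 size factors, upper quartile, library totals alone), other tests (DESeq2, limma-voom, the deposited log2 values), other filters, a stricter threshold, the compared groups alone, a replicate block and without each library. For ubiquitous progerin all counts stayed within 1.5 times the 17 higher and 10 lower genes (15 to 19 and 8 to 11 without 1 library). For VSMC progerin the 10 higher genes became 5 at an adjusted p under 0.01 (5 to 10 without 1 library), and the 10 lower genes became 16 with library totals alone (8 to 12 without 1 library). DESeq2 added Slc1a2, Slc38a4, Slc38a7 and Slc6a6 to the VSMC progerin calls. Library totals alone added Slc3a2, Slc6a8, Slc7a6os, Slc38a4, Slc38a9 and Slc38a10 and dropped Slc7a6. That scaling moved the median log2 fold change of all genes in this comparison to -0.11 and the split of all calls from 2705 higher and 3283 lower to 2272 and 4435, while the upper quartile gave 3251 and 2408. For the difference of effects the 6 lower genes became 3 with library totals alone and 2 at an adjusted p under 0.01 (3 to 5 without 1 library). The control comparison stayed at 0 in every fit. Values that changed sign belong to results that were not called. They were the difference of effects for Slc1a3 (-0.05 with limma-voom, -0.34 to 0.73 without 1 library) and Slc2a4 (-0.12 with limma-voom, -0.10 with the deposited log2 values, -0.06 with the replicate block, -0.49 to 0.40 without 1 library), and the VSMC progerin change of Slc1a4 (0.01 with DESeq2, with its size factors or in the compared groups alone, 0.05 with the upper quartile, -0.20 to 0.22 without 1 library), Slc2a10 (-0.06 with library totals alone, -0.03 to 0.07 without 1 library) and Slc38a6 (0.00 with DESeq2, with its size factors or in the compared groups alone, 0.04 with the upper quartile, -0.11 to 0.10 without 1 library). Slc3a1 with ubiquitous progerin ran from -0.41 to 0.25 without 1 library. Of the pathway counts, amino acid sensing moved most: with VSMC progerin its 3 higher genes became 8 with the upper quartile, 5 in the compared groups alone or without VSMC progerin pool 1, and 1 with library totals alone, and its 7 lower genes became 4 without VSMC progerin pool 2. Library totals alone also took the lower genes with VSMC progerin from 7 to 11 in glucose use and from 4 to 8 among glutamine and glutathione enzymes, where with ubiquitous progerin the 3 lower genes became 1 without wild-type control pool 2 and 5 without wild-type control pool 1 or VSMC progerin pool 2. The cause of these changes was not tested.

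Replicate numbers are shared between groups, but same-numbered pools did not deviate together over all genes (r from -0.055 to 0.023 over 19 pairs). Such correlations cannot show whether some genes shared a batch, and no source used here gives the batches. With the replicate block, 27 transporter genes were called for ubiquitous progerin (26 of them also without it), 21 for VSMC progerin (19) and 17 for the difference (16). By direction the block gave 18 higher and 9 lower, 9 and 12, and 12 and 5. At these depths the 11 tested genes under 1 CPM limit what could be seen.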
